A study of Mus musculus with 4 samples.

Results

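The genes described here encode 7 interferon-linked proteins that hinder viruses inside or on the surface of a cell: Mx1, Mx2, Bst2, Ifitm1, Ifitm2, Ifitm3 and Isg20. They were taken by gene symbol from a count table of 55487 annotated genes, where all 7 were found and all 7 were deep enough to test. RNA was measured in LPC-HRas, a mouse liver cancer cell line kept unstimulated in culture, with 2 libraries from UBXN9-overexpressing cells and 2 from control cells. The mouse gene of UBXN9, a protein with a UBX domain, is Aspscr1. The construct that raised it, the vector of the controls and the number of clones are not given in the sources used here.

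Mx proteins are dynamin-like GTPases that assemble on viral nucleoprotein, and mouse Mx1 is known for blocking influenza viruses in the nucleus. Bst2, also called tetherin, anchors budding virus particles to the cell surface. IFITM proteins are small membrane proteins that make fusion of incoming viruses with endosomal membranes harder, and Isg20 is an exonuclease that degrades RNA from its 3′ end. Interferons induce this class of genes through receptors, JAK kinases and transcription factors that bind a DNA motif called the interferon-stimulated response element (ISRE). Another motif of interferon responses is the gamma-activated sequence (GAS).

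The 7 genes lie at 4 loci of the build GRCm38, with positions and types from GENCODE release M21. Mx1 (ENSMUSG00000000386) occupies chromosome 16, 97447035 to 97462907, on the minus strand. Mx2 (ENSMUSG00000023341) lies beside it at 97535308 to 97560900 on the plus strand and is annotated as a polymorphic pseudogene, whereas the other 6 genes are annotated as protein-coding. Bst2 (ENSMUSG00000046718) is at chromosome 8, 71534255 to 71537456, on the minus strand. Ifitm2 (ENSMUSG00000060591, 140954837 to 140955987, minus), Ifitm1 (ENSMUSG00000025491, 140967221 to 140969825, plus) and Ifitm3 (ENSMUSG00000025492, 141009586 to 141010770, minus) form a cluster on chromosome 7. Isg20 (ENSMUSG00000039236) is elsewhere on chromosome 7, 78913424 to 78920396, on the plus strand.

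Promoter sequences show how far these genes carry the ISRE motif. RefSeq windows (GRCm38.p6) were held for 5 of the 7 genes, and none for Mx1 and Mx2, which both rose in UBXN9 cells. Each window was searched on both strands for an ISRE core (GAAA, any 2 bases, GAAA) and a GAS core (TTC, any 3 bases, GAA). A window of 300 bases runs from 250 bases before to 50 after an annotated transcript start. Of all 32851 such windows, 3.44% held at least 1 ISRE core, 0.225% held 2 or more and 8.3% held a GAS core. The 4 below, from 250 bases before to 30 after the start, are printed because Bst2 and Ifitm3 rose in UBXN9 cells, Ifitm2 did not pass the test and Ifitm1 fell. Capitals mark the ISRE cores.
Bst2, chr8:71537443-71537722, minus strand: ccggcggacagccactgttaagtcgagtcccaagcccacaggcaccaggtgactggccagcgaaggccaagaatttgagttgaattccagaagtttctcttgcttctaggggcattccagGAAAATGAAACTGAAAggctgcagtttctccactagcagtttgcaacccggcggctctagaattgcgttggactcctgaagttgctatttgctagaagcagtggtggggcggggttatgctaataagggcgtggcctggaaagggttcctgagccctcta
Ifitm3, chr7:141010715-141010994, minus strand: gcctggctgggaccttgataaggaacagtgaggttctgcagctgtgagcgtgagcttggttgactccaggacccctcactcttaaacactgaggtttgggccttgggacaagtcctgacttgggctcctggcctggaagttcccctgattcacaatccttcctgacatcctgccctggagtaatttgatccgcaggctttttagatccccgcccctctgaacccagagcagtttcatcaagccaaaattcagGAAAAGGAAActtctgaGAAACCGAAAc
Ifitm2, chr7:140955932-140956211, minus strand: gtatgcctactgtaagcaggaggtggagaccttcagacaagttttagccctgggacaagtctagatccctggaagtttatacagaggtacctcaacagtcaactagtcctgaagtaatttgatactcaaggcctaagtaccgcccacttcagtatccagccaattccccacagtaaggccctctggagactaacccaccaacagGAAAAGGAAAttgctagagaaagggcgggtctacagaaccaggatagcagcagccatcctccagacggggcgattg
Ifitm1, chr7:140967826-140968105, plus strand: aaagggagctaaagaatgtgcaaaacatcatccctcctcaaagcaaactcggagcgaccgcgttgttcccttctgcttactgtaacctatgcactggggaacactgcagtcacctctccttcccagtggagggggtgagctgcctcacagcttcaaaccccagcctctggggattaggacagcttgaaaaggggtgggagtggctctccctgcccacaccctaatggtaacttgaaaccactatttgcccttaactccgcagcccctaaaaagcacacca
The Bst2 window held 2 overlapping ISRE cores, which began 130 and 124 bases before the start, and a GAS core (TTCCAGGAA) that overlaps the first of them. The Ifitm3 window also held 2, beginning at bases 3 and 20 of the transcript, with a GAS core (TTCTGAGAA) that overlaps the second. Ifitm2 held 1, beginning 46 bases before the start, and its letters, GAAAAGGAAA, are the same as those of the first core in Ifitm3. No core of either kind was found in the Ifitm1 window. That window lies inside the annotated gene, which begins at 140967221, so sequence before that position was not searched. Isg20, which also rose in UBXN9 cells, has 3 annotated windows, none with an ISRE core and 1 with a GAS core (TTCTTGGAA). The 4 printed genes were picked by their outcome, and whether cores go with the direction of change was not tested. A match describes the letters in these windows and does not show binding.

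The libraries held 21814969 to 26292686 estimated counts in all. Aspscr1 stood at 391.6 and 380.0 CPM (CPM is the count scaled to library size with TMM factors) in UBXN9 cells, against 92.11 and 115.1 CPM in control cells, so the labels match the targeted gene. A single annotated ribosomal RNA gene, CT010467.1, took 0.509% and 0.820% of the counts in UBXN9 libraries and 0.211% and 0.341% in control libraries. Its RNA is 1 of 6 checked that lack a poly-A tail, with log2 fold changes of 1.33 to 3.31. Of the 6, Rn7s1 and Rn7s2 had the same counts in every library, so they are not separate signals. Of the 6 RNAs edgeR called 1, Rn7sk, at 5.47 and 26.4 CPM in UBXN9 and 1.68 and 2.31 CPM in control libraries. DESeq2 called 4 and limma-voom called 0. Library UBXN9 2 carried most of the rise: the log2 fold changes were 0.661 to 1.46 without UBXN9 2 and 1.59 to 4.19 without UBXN9 1. The part of such RNA in the results below was not tested. Of the markers checked, the hepatocyte gene Alb was at 0 counts in every library, while 2 of the 6 biliary and progenitor markers, Spp1 and Sox9, were abundant. Of the other 4, Prom1 was at 0 counts, Epcam and Krt7 were under 1 CPM in every library, and Krt19 fell to 3.29 and 2.15 CPM in UBXN9 libraries, against 7.06 and 10.4 CPM in control libraries (edgeR adjusted p = 0.0294). Of 15 leukocyte markers 12 were under 1 CPM in every library, with Cd3e, Cd3g, Cd8a and Nkg7 at 0 counts throughout; the whole list summed to 10.0 to 12.5 CPM in UBXN9 and 6.68 to 6.99 CPM in control libraries, and Lyz2 was called as higher. In such bulk RNA, fewer cells with a transcript and less of it per cell cannot be told apart.

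Of the 7 restriction factor genes, 5 rose in UBXN9 cells, 1 fell and 1 did not pass the test. Each test was edgeR's quasi-likelihood F test over 13230 genes, with Benjamini-Hochberg adjustment and a threshold of 0.05. Over all genes tested, 7.44% were called, 5.06% as higher and 2.38% as lower. The members' median log2 fold change was 2.21, against -0.0056 over all genes tested. UBXN9 and control libraries did not overlap in 6 of the 7, as in 50.6% of all genes tested. Together the 7 genes took 0.349% and 0.320% of all counts in UBXN9 libraries, against 0.157% and 0.149% in control libraries.

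**Figure D1:**
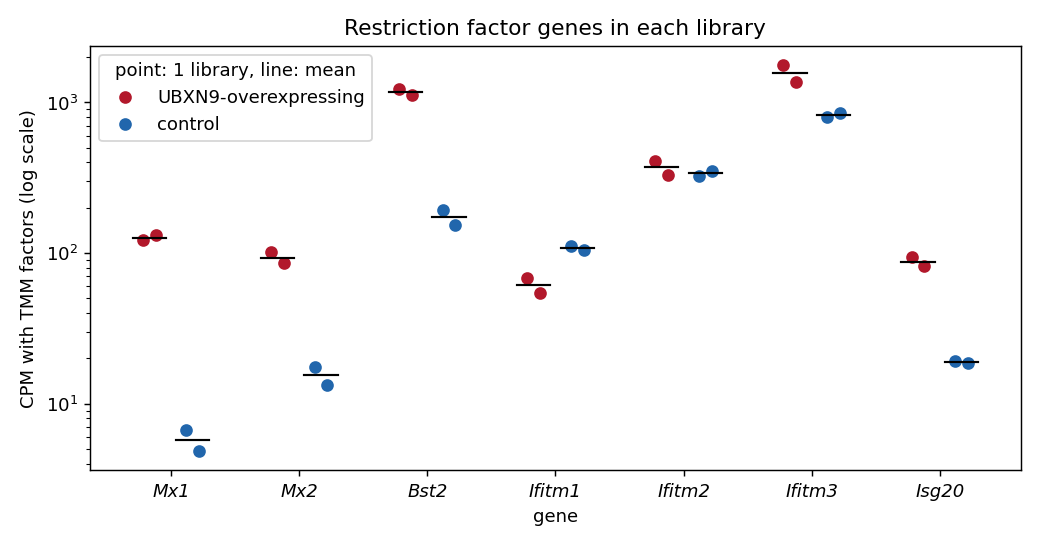
CPM (log axis) of the 7 genes in each library, with UBXN9-overexpressing cells left of control cells, a point per library and a line at the mean of 2. The groups overlap in Ifitm2, Ifitm1 is lower in UBXN9 cells, and the gap is widest in Mx1, with 121.5 and 131.9 CPM in UBXN9 cells against 6.64 and 4.85 CPM in control cells.

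Mx1, a GTPase gene, moved most among the 7. It had 121.5 and 131.9 CPM in UBXN9 cells, against 6.64 and 4.85 CPM in control cells. Such RNA counts do not show whether this line makes an active Mx1 protein. Both UBXN9 libraries were far above both controls, and the lowest UBXN9 value exceeded the highest control value by 4.19 on the log2 scale. The mean was 127 ± 7.37 CPM in UBXN9 cells and 5.75 ± 1.26 CPM in control cells (SD, n = 2 each), which is 4.46 higher on the log2 scale (SE 0.22, edgeR adjusted p = 0.00022). A larger rise was found in 0.62% of the genes tested.

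Mx2, its neighbour and close relative, had 101.2 and 85.5 CPM in UBXN9 cells and 17.6 and 13.3 CPM in control cells. Both UBXN9 libraries were again above both controls. The rise was 6.03-fold, or 2.59 on the log2 scale (SE 0.21, edgeR adjusted p = 0.00075).

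The order of the 2 Mx genes differed between the groups. Mx1 made up 54.6% and 60.7% of the summed Mx counts in UBXN9 libraries, against 27.4% and 26.8% in control libraries. Per length of exon, the ratio of Mx1 to Mx2 was 1.15 and 1.47 in UBXN9 libraries and 0.36 and 0.349 in control libraries, so that Mx1 was the more abundant transcript in UBXN9 cells and Mx2 in control cells. With 2 libraries in each group, the best outcome of a two-sided exact permutation test is reached by 2 of the 6 ways to split them, so no such test of this difference could pass. The 2 transcripts share 159 stretches of 50 bases, which are 3.86% of those of Mx1 and 4.38% of those of Mx2. Their deposited counts are fractions that sum to whole numbers in every library (4474 and 5766 in UBXN9, 635 and 400 in control), so some reads had been split between them. Counted as 1 feature, the pair rose by 3.37 on the log2 scale (SE 0.20, edgeR adjusted p = 0.000293).

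**Figure D2:**
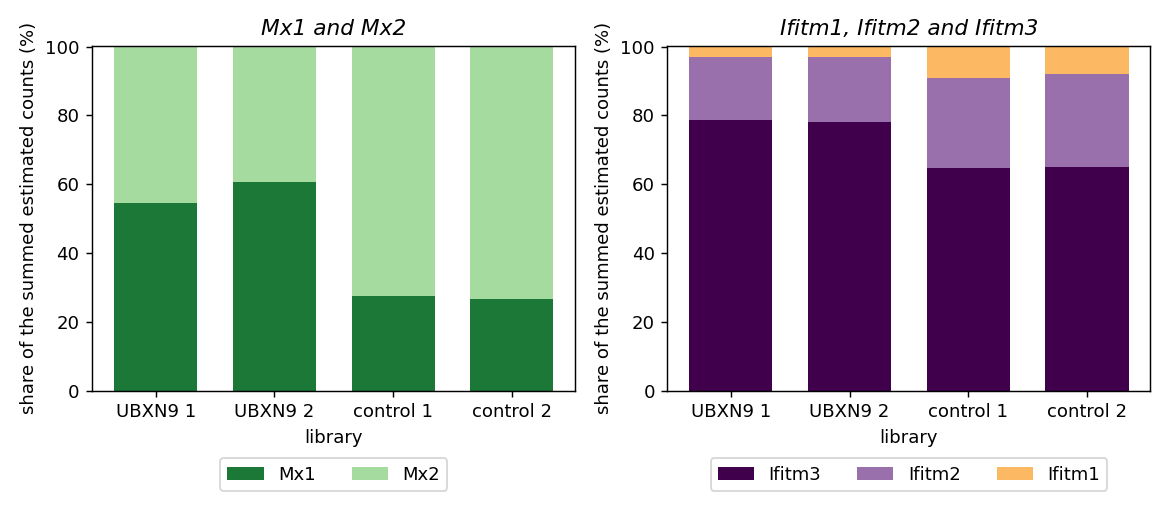
Share of the summed estimated counts (%) in each library for the 2 Mx genes (left) and for the 3 Ifitm genes (right), with the UBXN9 libraries left of the control libraries. Mx1 takes 54.6% and 60.7% in UBXN9 libraries, against 27.4% and 26.8% in controls, and Ifitm1 takes 3.06% and 3.07% in UBXN9 libraries, against 9.01% and 8.02% in controls.

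Bst2, the tetherin gene, had 1221 and 1114 CPM in UBXN9 cells, against 194.7 and 152.7 CPM in control cells. It was abundant already in the controls, where it ranked 1115 of 13230 genes by mean CPM, and it ranked 92 in UBXN9 cells. The groups were separate, with a mean of 1168 ± 76.2 CPM in UBXN9 cells and 174 ± 29.7 CPM in control cells (SD, n = 2 each). Bst2 rose 6.72-fold, or by 2.75 on the log2 scale (SE 0.21, edgeR adjusted p = 0.00063). No stretch of 50 bases in Bst2 or Isg20 transcripts occurred in another gene, and no annotated gene overlaps either of them.

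Isg20, the RNA exonuclease, had 93.98 and 81.5 CPM in UBXN9 cells, against 19.3 and 18.5 CPM in control cells. The control libraries lay close together and well below both UBXN9 libraries. Isg20 rose 4.64-fold, or by 2.21 on the log2 scale (SE 0.17, edgeR adjusted p = 0.00063). Mx1, Mx2, Bst2 and Isg20 were called under each of the alternatives run for them, with log2 fold changes of 4.25 to 4.70 for Mx1, 2.41 to 2.81 for Mx2, 2.58 to 2.93 for Bst2 and 2.11 to 2.31 for Isg20.

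The Ifitm cluster did not move as a block: Ifitm3 rose, Ifitm2 did not pass and Ifitm1 fell. Ifitm3, the member best known for restricting influenza virus, had 1768 and 1373 CPM in UBXN9 cells, against 800.1 and 850.0 CPM in control cells. The groups did not overlap, although the UBXN9 libraries differed from each other by more than the controls did. The rise was 1.90-fold, or 0.93 on the log2 scale (SE 0.21, edgeR adjusted p = 0.0425). Ifitm3 was one of the most abundant genes tested in both groups, ranking 59 in UBXN9 cells and 133 in control cells by mean CPM.

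Ifitm2, which encodes a second membrane protein of the family, had 410.3 and 331.8 CPM in UBXN9 cells and 324.9 and 351.5 CPM in control cells. The groups overlapped, since UBXN9 2 lay between the controls. UBXN9 over control cells gave 0.13 on the log2 scale (SE 0.18, edgeR adjusted p = 0.743).

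Ifitm1, the third clustered gene, had 68.7 and 54.0 CPM in UBXN9 cells, against 111.3 and 104.8 CPM in control cells. Both UBXN9 libraries were below both controls, with a mean of 61.3 ± 10.4 CPM in UBXN9 cells and 108 ± 4.66 CPM in control cells (SD, n = 2 each). UBXN9 over control cells gave -0.82 on the log2 scale (SE 0.18, edgeR adjusted p = 0.0384). A larger fall was found in 5.79% of the genes tested.

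The calls of Ifitm3 and Ifitm1 depended on both controls. With 1 control left out, the lone control is assumed to vary like the UBXN9 pair, which alone then gives the spread. Without control 1 the adjusted p from edgeR was 0.296 for Ifitm3 and 0.19 for Ifitm1, and without control 2 it was 0.235 for Ifitm3 and 0.168 for Ifitm1. The log2 fold changes were then 0.88 and 0.97 for Ifitm3 and -0.78 and -0.86 for Ifitm1, while the SE grew to 0.408 and 0.377 for Ifitm3 and to 0.322 and 0.307 for Ifitm1. Of the 15 alternatives run, by edgeR and the other tools together, 12 called each gene. Besides the fits with a lone control, the replicate block did not call either gene. The log2 fold change ranged from 0.74 to 1.10 for Ifitm3 and from -0.998 to -0.65 for Ifitm1. Among the 12 are the fits without UBXN9 1 or without UBXN9 2, whose spread comes from the control pair alone. Over the genes tested, the median absolute log2 difference was 0.199 between control libraries and 0.313 between UBXN9 libraries. The 12 also include a crossed pairing of libraries, added after the data were seen, in which edgeR gave an adjusted p of 1.55e-05 for Ifitm3.

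Within a library, the ratio of Ifitm3 to Ifitm1 per length of exon was 41.5 and 41.0 in UBXN9 libraries, against 11.6 and 13.1 in control libraries. Ifitm3 was 78.7% and 78.1% of the summed counts of the 3 genes in UBXN9 libraries and 64.7% and 65.1% in control libraries. Ifitm2 took 18.3% and 18.9% in UBXN9 libraries and 26.3% and 26.9% in control libraries. The shares lay close together within each group and apart between groups, and as with Mx no exact permutation test of them could pass. Summed to 1 feature, the 3 genes had a log2 fold change of 0.66 and did not pass (SE 0.21, edgeR adjusted p = 0.123).

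Ifitm2 shares most of its repeated sequence with loci outside the 3 genes. Of the distinct 50-base stretches of Ifitm2, 48.5% also occur in other annotated genes, against 10.0% for Ifitm3 and 5.02% for Ifitm1. The largest partner of Ifitm2 is Gm45717, which overlaps it on the same strand and had 0.53 and 0 estimated counts in UBXN9 libraries and 0 and 1.02 in control libraries. The processed pseudogenes Gm11951 and Gm8865, which share 14.9% and 12.4% of the Ifitm2 stretches, had at most 1 count in any library. Among the 3 genes themselves sharing was low: Ifitm2 has 3.30% of its stretches in common with Ifitm3, Ifitm3 has 2.38% in common with Ifitm1, and Ifitm1 has 1.42% in common with Ifitm3.

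**Figure D3:**
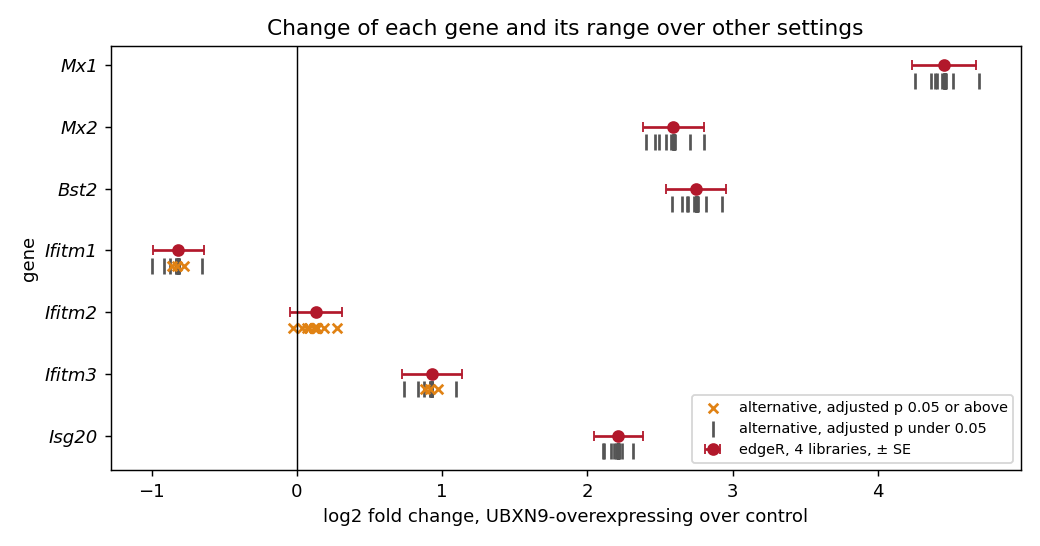
Log2 fold change of UBXN9-overexpressing over control cells for each of the 7 genes, as the edgeR value with its SE (circle and bar) and the values under other settings (ticks where the adjusted p was under 0.05, crosses where it was not). Mx1, Mx2, Bst2 and Isg20 carry ticks alone, between 2.11 and 4.70, while crosses appear for Ifitm1 and Ifitm3 and are all that Ifitm2 has.

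The order of levels per kilobase of exon shows which of these genes the cells held most of. In UBXN9 cells the mean was 2316 CPM per kilobase for Ifitm3, 1293 for Bst2, 567 for Ifitm2, 56.1 for Ifitm1, 47.2 for Isg20, 33.5 for Mx1 and 25.8 for Mx2. In control cells it was 1217 CPM per kilobase for Ifitm3, 516 for Ifitm2, 192 for Bst2, 98.8 for Ifitm1, 10.2 for Isg20, 4.27 for Mx2 and 1.52 for Mx1. Bst2 thus stood above Ifitm2 in UBXN9 cells and below it in control cells. In UBXN9 cells Ifitm1 (62.8 and 49.4 CPM per kilobase) and Isg20 (50.5 and 43.8) overlapped, and no other neighbours in either order did.

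The libraries of a group did not differ alike for all members. On the log2 scale of CPM, UBXN9 1 exceeded UBXN9 2 by 0.365 for Ifitm3, 0.347 for Ifitm1 and 0.306 for Ifitm2, while for Mx1 the difference was -0.119. Between control 1 and control 2 the largest differences were 0.452 for Mx1, 0.404 for Mx2 and 0.350 for Bst2. These are smaller than the differences between the groups for every member but Ifitm2.

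Genes outside the 7 with the most similar profile were found by the distance between log2(CPM + 0.5) values, each centred on the gene's own mean, over the 4 libraries. For Mx2 they were Trim12a, a TRIM family gene (distance 0.0499), and Irf5, an interferon regulatory factor (0.105). Bst2 was closest to Olfr56 (0.0953) and Ifi204, a PYHIN family DNA-binding gene (0.123), and lay 0.206 from Mx2. The annotated span of Olfr56 overlaps Ifi47, on the same strand, and Tgtp1 and Tgtp2, which are interferon-inducible GTPase genes, so its counts are uncertain. For Mx1 they were Gm12606 (0.216) and the guanylate-binding protein gene Gbp9 (0.247), and for Isg20 it was Enpp5 (0.0552). Gm12606 had only 0.305 and 0.0454 CPM in control cells, so the added 0.5 shrinks its difference: edgeR gave 6.17 on the log2 scale for it (8.06 without control 1, 5.46 without control 2) and 4.46 for Mx1.

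The 3 Ifitm genes had other companions. Ifitm3 lay closest to Parp3, an ADP-ribosyltransferase gene (0.0342), and Plk2, a polo-like kinase gene (0.0381), both of which rose, by 0.91 for Parp3 and 0.94 for Plk2 on the log2 scale. With the spread again from the UBXN9 pair alone, Parp3 was at 0.87 without control 1 and 0.94 without control 2 (edgeR adjusted p = 0.148 and 0.149), and Plk2 at 0.86 and 1.01 (0.184 and 0.134). Over the 16 alternatives run the adjusted p was 1.58e-07 to 0.149 for Parp3 and 4.06e-07 to 0.184 for Plk2, by edgeR and the other tools. Ifitm2 was closest to Nmt1 (0.0192) and Erf (0.0276), and Ifitm1 to Wdr76 (0.0553) and the DNA damage-binding gene Ddb2 (0.0815). None of these last 4 passed edgeR's test. Such distances over 4 libraries describe likeness and were not tested.

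Other genes of antiviral restriction were read in the same fit. The list shares 7 genes with the structural relatives and 3 with the neighbouring genes described further on, and 1 each with the signal components and the partners. Of 46 listed, 44 were tested, and 32 rose, 0 fell and 12 did not pass. The share called was 72.7%, against 7.44% of all genes tested, and the median log2 fold change was 1.88. In UBXN9 cells Parp12, an ADP-ribosyltransferase, had 193.1 and 213.8 CPM, against 7.56 and 8.44 CPM in control cells. Zbp1, which senses Z-form nucleic acids, had 517.2 and 397.4 CPM in UBXN9 cells and 20.2 and 18.1 CPM in control cells. The oligoadenylate synthetase family genes Oasl1 and Oas1a had log2 fold changes of 2.92 and 3.88, the IFIT family gene Ifit3 3.90 and the adaptor gene Hsh2d 5.08. The lowest value of the list was -0.55 and did not pass. The list was drawn up with earlier results of these data known, and many of its genes are known to respond to interferon.

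Of 20 components and regulators of interferon signalling 10 rose, 0 fell and 10 did not pass, and the median was 0.75 on the log2 scale. For comparison, edgeR called 7.44% of all genes tested, 5.06% as higher, and their median was -0.0056. Irf7, the transcription factor that amplifies type I interferon, had 671.6 and 592.8 CPM in UBXN9 cells, against 102.6 and 100.5 CPM in control cells. Usp18, which removes Isg15 from proteins and damps the receptor, had 679.7 and 540.1 CPM in UBXN9 cells, against 99.02 and 87.9 CPM in control cells, a 6.52-fold rise (edgeR adjusted p = 0.000555). Irf7 overlaps Phrf1 on the other strand, which with strand handling not given makes its counts less certain. The receptor chain genes Ifnar1 and Ifnar2, named after their values were seen, did not pass, with log2 fold changes of -0.15 and 0.44. Ifnb1, the interferon beta gene, also named after its values were seen, was called as higher. Its level was low, with 28 and 45 counts in UBXN9 libraries and 2 and 5 in control libraries. The log2 fold change was 3.35 (SE 0.61, edgeR adjusted p = 0.0206).

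Of 19 tested structural relatives of the 7 proteins, 2 rose, 0 fell and 17 did not pass. The share called was 10.5%, against 7.44% of all genes tested. Of 7 genes of the wider dynamin superfamily, to which Mx proteins belong, 0 were called by edgeR, DESeq2 or limma-voom and 0 had an unadjusted p under 0.05, with log2 fold changes from -0.29 to 0.26. Of 9 tested exonuclease genes related to Isg20 in activity, 1 rose: Trex1, which degrades DNA in the cytosol, had 107.1 and 83.9 CPM in UBXN9 cells and 32.4 and 35.02 CPM in control cells (edgeR adjusted p = 0.00431); Atrip overlaps it on the same strand. Of 11 further genes of the CD225 family, which holds the IFITM proteins, 3 were deep enough to test. Ifitm6 was called as higher from 28 and 35 counts in UBXN9 libraries against 9 and 6 in control libraries. The log2 value was 2.11 (edgeR adjusted p = 0.0454), and 10 of 15 alternatives called it, with adjusted p from 0.00722 to 0.403. Both Trex1 and Ifitm6 are also among the other restriction factors that rose. The call of Ifitm6 was lost with upper-quartile factors (0.0521), library size alone (0.0698), DESeq2 (0.162), and without control 1 (0.263) or control 2 (0.403). Prrt2, which Gm42742 overlaps, had 1.13 and 0 estimated counts in UBXN9 libraries, against 14.4 and 12.4 in control libraries, and did not pass in edgeR (adjusted p = 0.0524); 6 of 13 alternatives called it, with adjusted p from 0.0101 to 0.264.

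Genes reported to modify or act with these proteins were measured too. Of 10 such partners, 0 were called by edgeR, DESeq2 or limma-voom and 1 had an unadjusted p under 0.05 in edgeR. Over all genes tested, edgeR called 7.44%. Leaving out UBXN9 2 leaves 1 UBXN9 library, and the spread then comes from the control pair alone. The log2 fold changes were then -0.92 for Setd7, -0.75 for Nedd4, -0.69 for Zdhhc20 and 0.61 for Ddx39. The last 3 were named after their values were seen. The smallest p belonged to Vapa, a membrane contact protein that binds IFITM3, with 130.6 and 135.1 CPM in UBXN9 cells and 95.7 and 99.1 CPM in control cells (edgeR adjusted p = 0.132). Vcp, the ATPase that UBX-domain proteins bind, had a log2 fold change of 0.37 (edgeR adjusted p = 0.308), and Setd7, a methyltransferase that acts on IFITM3, -0.53 (edgeR adjusted p = 0.309).

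**Figure D4:**
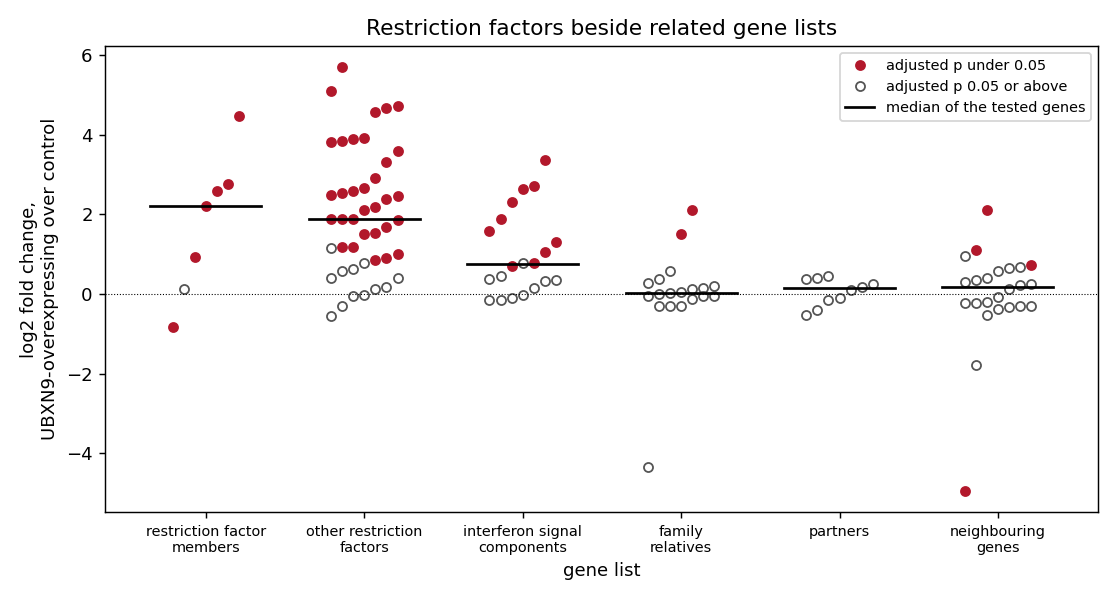
Log2 fold change of UBXN9-overexpressing over control cells for the 7 members and 5 related lists, with a point per tested gene (filled where the adjusted p was under 0.05) and a line at each list's median. The medians stand at 2.21 for the members, 1.88 for other restriction factors and 0.75 for signal components, and at 0.02 for relatives, 0.14 for partners and 0.17 for neighbours. Some genes stand in more than 1 list: Ifitm6 is a restriction factor, a relative and a neighbour.

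Genes beside the 4 loci were read for comparison. The 3 nearest tested protein-coding genes on each side gave 24 genes. They lie 2215 to 1319306 bases from their locus, so some are far away. Of these genes 3 rose and 1 fell (16.7%, against 7.44% of all genes tested), with a median log2 fold change of 0.17. Bace2, a protease gene that ends 4099 bases from Mx1, had 0.149 and 0.0377 CPM in UBXN9 cells, against 2.82 and 2.86 CPM in control cells. The log2 fold change was -4.95 (SE 0.59, edgeR adjusted p = 0.00411), against -6.055 without UBXN9 1 and -4.2 without UBXN9 2; only 3 and 1 counts stand behind the UBXN9 values. Ifitm6, already counted among the restriction factors and the relatives, is 1 of the 3 that rose and lies 4929 bases beyond Ifitm3.

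Beside Bst2, the endothelial diaphragm gene Plvap and the fatty acid transporter gene Slc27a1 were called as higher, with log2 fold changes of 1.11 and 0.74. With a lone control, as above, neither was called, at 1.295 and 0.949 for Plvap (edgeR adjusted p = 0.121 without control 1 and 0.429 without control 2) and 0.68 and 0.79 for Slc27a1 (0.423 and 0.297). The call of Plvap was also lost with upper-quartile factors (0.0591), library size alone (0.1) and the filter of 5 CPM (0.0518). Over the 16 alternatives run the adjusted p was 0.000881 to 0.429 for Plvap and 0.000169 to 0.423 for Slc27a1. The 6 genes beside Isg20 included 0 called by edgeR, DESeq2 or limma-voom and 1 with an unadjusted p under 0.05. That gene was Aen, a p53-regulated exonuclease gene 2215 bases away, with 47.8 and 42.3 CPM in UBXN9 cells and 30.4 and 29.5 CPM in control cells (edgeR adjusted p = 0.0856), named after its values were seen.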

How the data were processed

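Total RNA was made into libraries with the TruSeq RNA v2 kit and sequenced on a HiSeq 2500, per the labels' protocols. The authors deposited 1 table of estimated counts for each gene, unscaled. Per the submitters' processing notes, the tools were HISAT2 2.1.0 and HTSeq, with the build GRCm38.p6. Settings, annotation and strand handling are not given in the sources used here. Values were rounded to whole counts, and 241 of 55728 rows, loci outside the annotation with 0.302% to 0.535% of each library, were left out. Symbols and positions came from GENCODE M21, which held 55227 of the 55487 identifiers.

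edgeR 4.0.16 in R 4.3.3 compared UBXN9 with control libraries (TMM, filterByExpr, quasi-likelihood F test, two-sided, Benjamini-Hochberg over all genes tested). The SE is the log2 fold change divided by the root of F. Alternatives used limma 3.58.1, DESeq2 1.42.0, other scalings, filters and left-out libraries. With 2 libraries per group, a p-value reflects only how far these libraries vary, which may be technical. The procedure was also run on 3 draws of simulated data with 200 changed genes each, and no result here rests on those draws. Likeness used log2(CPM + 0.5) and genes of at least 5 CPM in the mean over all libraries, which a gene can reach through 1 group alone. Named genes were the members, Aspscr1, the 6 other restriction factors and the 3 genes of each further list with the smallest p, called neighbours and the 2 closest profiles per member; others are marked as named after their values were seen, apart from the pseudogenes and markers given as checks. Of the genes this rule names, 2 are not reported here. Members and lists were chosen with earlier results of these data known. Figures were drawn with matplotlib 3.10.9.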

Additional observations from a re-analysis of the deposited data

How the results depend on the processing

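Of the 7 members, 6 were called with all libraries and in 12 of 16 alternatives, and 4 (Mx1, Mx2, Bst2 and Isg20) without control 1, without control 2, with a replicate block and at an adjusted p of 0.01. The log2 fold change of Ifitm2 was -0.025 without UBXN9 1 and 0.28 without UBXN9 2. For Nmt1 and Erf, close in profile to it, the values were -0.039 and -0.0077 without UBXN9 1, and 0.26 and 0.31 without UBXN9 2. The count of all changed genes was 984, against 1827 without a filter, 398 at an adjusted p of 0.01, and 508 to 2782 with a library left out. Other restriction factors ranged from 25 to 38 called, of 32 with all libraries. Interferon signal components had 6 called at an adjusted p of 0.01, against 10. Family relatives had 1 called, against 2, with upper-quartile factors, library size alone, the 5 CPM filter, DESeq2 and an adjusted p of 0.01, and 1 to 5 with a library left out. Partners had 0 to 4 called with a library left out, the 4 without UBXN9 2. Neighbouring genes had 2 called, against 4, with upper-quartile factors or library size alone, 7 without a filter, 1 with the 5 CPM filter or an adjusted p of 0.01, and 1 to 9 with a library left out. The cause was not tested. Library size alone moved the median of all genes by -0.0882 on the log2 scale.

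Deviations of same-numbered libraries from their group means correlated at -0.373 across genes. With 2 libraries per group, that value cannot show whether the replicate numbers pair the libraries. With a replicate block 932 genes changed, the adjusted p was 0.146 for Ifitm3 and 0.0554 for Ifitm1, and neighbouring genes had 2 called. Crossed pairing, added after the data were seen, gave 3137 changed genes, with 4 family relatives, 5 partners and 10 neighbouring genes called. The lowest estimated count of a member was 107.17, for Mx1 in control 2; whether depth or the number of libraries limits precision was not tested.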

Other observations

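The ISRE core seen in the Bst2, Ifitm3 and Ifitm2 promoters was also counted over all tested genes with a RefSeq window, after the promoters of the members had been read. At least 1 window held it in 88 of 469 genes that rose in UBXN9 cells (18.8%), in 8 of 215 genes that fell (3.72%) and in 275 of 9044 genes that did not pass (3.04%). Among the other restriction factors it was found for 12 of 28 genes that rose (42.9%) and 2 of 11 that did not pass (18.2%). These shares are a description of the letters in the windows, and genes are not independent replicates.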
